A study of Mus musculus with 2 samples.

Results

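The spleen cells sorted as dendritic cells with an Il7r history contained a small group of B cells. B cells were taken from the filtered barcodes by 4 limits on unique molecular identifiers (UMIs, each standing for 1 captured RNA molecule). Cd79a, Cd79b and Ms4a1 together had to reach 5 UMIs, Cd79a had to have at least 1, Nkg7 could have at most 1 and Xcr1 none. In the L-cDC library 53 of 4086 filtered cells met these limits, which is 1.30% (exact Clopper-Pearson 95% interval 0.973 to 1.69). Of these, 28 cells (0.685%, interval 0.456 to 0.989) had fewer than 3 UMIs of Fscn1, which encodes fascin, a protein that bundles actin and is abundant in mature dendritic cells. The other 25 cells (0.612%, interval 0.396 to 0.902) had 3 or more and are given apart as possible doublets of a B cell and a mature dendritic cell.

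Both libraries came from spleens of naive mice of 1 genotype, Il7r-cre; Rosa26-lsl-tdTomato, kept free of specific pathogens and aged 7 to 9 weeks. In these mice the Cre recombinase made from Il7r switches on the red protein tdTomato for good, so the label marks past as well as present Il7r expression. Cells were enriched with magnetic beads through CD11c, the integrin alpha X encoded by Itgax, and sorted by flow cytometry into tdTomato-positive (L-cDC) and tdTomato-negative (M-cDC) cells. There was 1 library of each and no replicate. How many animals were pooled was not given in the sources used here. No test between the groups was possible, and all intervals below cover counting error only. The deposited matrices hold 4939 L-cDC barcodes with 40170515 UMIs and 6674 M-cDC barcodes with 52973960 UMIs. The libraries shared 6 barcode sequences, none of them among the B cells.

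B cells develop from lymphoid progenitors that depend on interleukin 7 and its receptor. Each mature B cell displays an antibody as its antigen receptor, made of a heavy chain and either a kappa or a lambda light chain, and held in the membrane by the signalling pair Cd79a and Cd79b. In the spleen most B cells are follicular cells carrying IgM and IgD, with smaller numbers of marginal zone cells, class-switched cells and antibody-secreting plasma cells. B cells also present antigen on MHC class II, as dendritic cells do.

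The results on antibody light chains rest on genes that resemble each other, so the stretches below are shown first. They are 120 coding bases of each lambda constant gene, laid on one another without gaps, on the minus strand of GRCm38 (GENCODE M21 transcripts). Capitals mark bases that differ from Iglc2.
Iglc2 (chr16:19198724-19198843): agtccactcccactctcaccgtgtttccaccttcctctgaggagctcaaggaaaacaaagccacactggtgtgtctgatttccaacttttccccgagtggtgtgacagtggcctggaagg
Iglc3 (chr16:19065553-19065672): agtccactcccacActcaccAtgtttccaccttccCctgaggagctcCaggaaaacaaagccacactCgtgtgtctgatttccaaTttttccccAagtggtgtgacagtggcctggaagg
Iglc1 (chr16:19061943-19062062): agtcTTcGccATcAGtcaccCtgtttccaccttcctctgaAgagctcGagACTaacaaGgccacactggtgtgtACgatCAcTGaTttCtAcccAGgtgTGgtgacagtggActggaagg
In this stretch Iglc3 differed from Iglc2 at 7 bases and Iglc1 at 28. Over whole transcripts Iglc2 and Iglc3 were 95.4% identical along 452 aligned bases, whereas Iglc1 and Iglc2 were 76.2% identical along 307. How the UMIs of Iglc2 and Iglc3 divide between these 2 genes is therefore uncertain, and results on lambda chains are given mainly as the sum of all 3 genes.

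By the same limits no cell of the M-cDC library was a B cell, 0 of 5848. A count of 0 allows a share of up to 0.0513% by the 3-count limit and 0.0631% by the exact Clopper-Pearson interval. At lower stringency, 1 M-cDC cell had a sum of 3 or 4 UMIs of the gating genes with Cd79a present, and the 6 cells that reached 5 had no Cd79a and at most 7 UMIs. When cells were chosen instead by at least 3 UMIs over 6 other B cell genes, such as Pax5, Ebf1 and Cd22, with the limits on Nkg7 and Xcr1 kept, 72 L-cDC cells (1.76%) and 12 M-cDC cells (0.205%) qualified. The statement that M-cDC held none therefore applies to the Cd79a-based limits. A comparison of B cells between the libraries could not be made.

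Few L-cDC cells lay near the limits. The lowest sums of Cd79a, Cd79b and Ms4a1 among the 53 cells were 5, 6 and 9, the other 50 cells had 10 or more, and the highest sum was 133. Just outside, 3 L-cDC cells had a sum of 3 or 4 with the other limits met. Another 7 reached 5 UMIs but were left out, 5 of them because Cd79a was 0 and 2 because Xcr1 was present. The latter 2 cells had sums of 12 and 32 and also 20 and 18 Fscn1 UMIs. In the 28 cells with fewer than 3 Fscn1 UMIs, Cd79a had from 3 to 48 UMIs (median 13), Cd79b from 1 to 20 (median 6) and Ms4a1, the gene of CD20, from 0 to 26 (median 4.5). These values chose the cells and are a description only.

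B cells were shallower than the cells around them. The 28 cells had a median of 5053 UMIs and 1605 genes, the 25 Fscn1-rich cells had 8166 UMIs and 2127 genes, and the other 4033 filtered L-cDC cells had a median of 8718 UMIs. The median mitochondrial share was 5.11% in the 28 cells, 3.96% in the 25 and 2.92% over all filtered L-cDC cells. Ribosomal protein genes made up a median of 27.7% of the UMIs in both sets of B cells against 19.5% over all filtered cells. Doublet scoring with Scrublet marked 163 L-cDC cells (3.99%) and 3 of the 53 B cells (5.66%, interval 1.18 to 15.7), 1 with fewer than 3 Fscn1 UMIs and 2 with more.

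**Figure D1:**
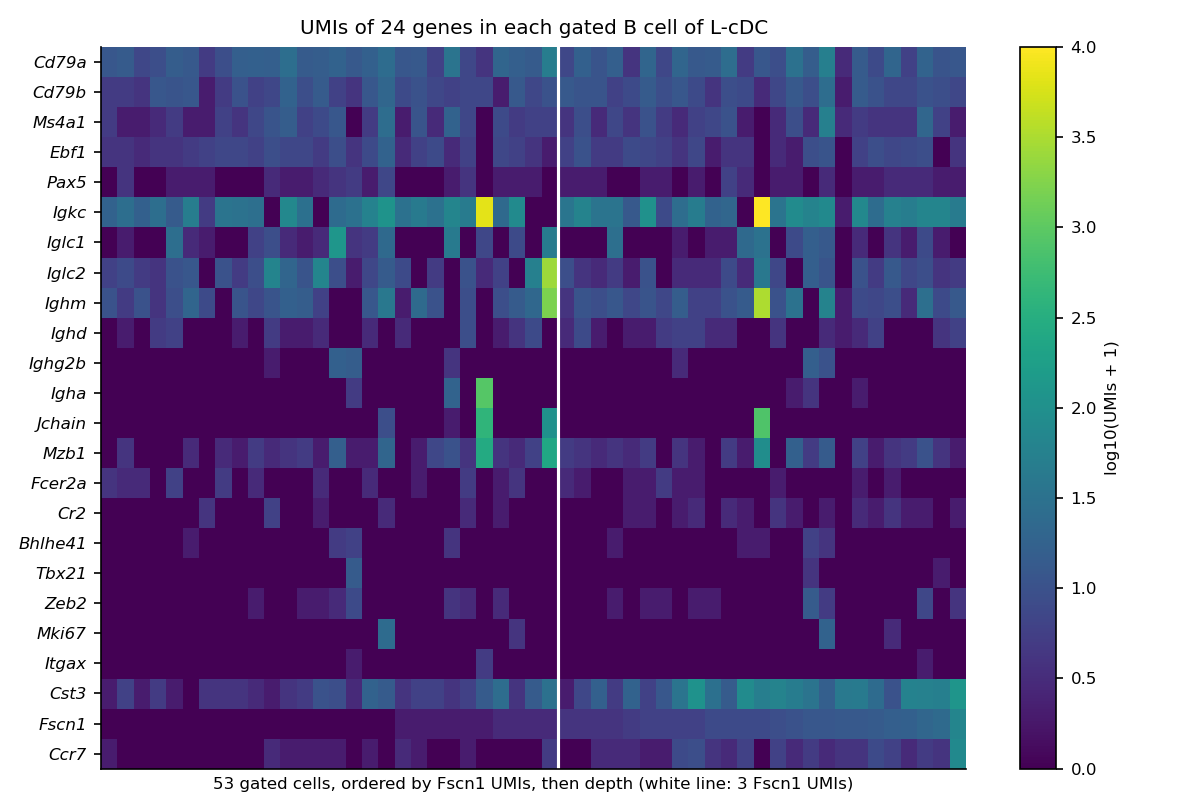
UMIs of 24 genes in each of the 53 gated cells of L-cDC, on a colour scale of log10(UMIs + 1); columns are cells ordered by Fscn1 UMIs and then by depth, and the white line separates the 28 cells with fewer than 3 Fscn1 UMIs from the 25 with 3 or more. Cd79a and Ebf1 run across both sets, Cst3 is higher on the right, and 3 columns stand out for Jchain and for Igkc or Iglc2.

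The identity of the cells was read from genes the limits did not use. Ebf1 and Pax5, transcription factors that set and hold the B lineage, were found in 27 and 17 of the 28 cells. Ebf1 had from 0 to 17 UMIs per cell (median 5), and its summed level was 675 CPM (its UMIs scaled to 1e+06 UMIs of the set) against 3.73 CPM in the other L-cDC cells. Pax5 was at 165 against 0.521 CPM. Over all 53 cells, 3 had no UMI of either Ebf1 or Pax5. Levels are sums over the cells of a set. Genes were considered if they reached 20 CPM on the higher side and 20 UMIs over both sides, and a gene was counted as higher or lower at 2-fold or more. All these ratios follow from a choice of cells by B cell genes, so no test is attached to them.

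Of all genes 5554 were considered, of which 1023 (18.4%) were higher in the 28 B cells than in the other L-cDC cells and 1094 (19.7%) were lower. With the added demand that the exact 95% interval of the ratio leave out 1, the shares were 15.2% and 13.3%. The median log2 ratio of all considered genes was 0.098. Immunoglobulin genes alone took 7.30% of the B cell UMIs and 0.0165% of those of the other cells. This B cell share rested largely on antibody-rich cells described below. Per cell, constant-region and joining-chain (Jchain) UMIs made up a median of 1.27% in the 28 cells and at most 26.6%. Outside the antibody-rich cells, no gated cell exceeded 2.79%. When immunoglobulin, mitochondrial and ribosomal protein genes were left out of the scaling, 6800 genes were considered. Of these, 2018 were higher and 922 lower. The median log2 ratio of these 6800 genes was 0.459, which is 0.36 above that of the 5554, a different set of genes.

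Surface genes of B cells were higher as a group, 15 of 16 members considered, with a median log2 ratio of 5.37. Fcmr, the Fc receptor for IgM, was at 260 CPM against 0.547 CPM. Fcer2a, the low-affinity IgE receptor CD23, was at 155 against 0.573 CPM, and Cd22, an inhibitory lectin of B cells, at 115 against 1.30 CPM. Ly6d, a surface protein of the B lineage, was the most abundant of the list at 1620 CPM, against 23.2 CPM. The exception was Cd40, the costimulatory receptor that dendritic cells use too, at 45.0 CPM against 147 CPM.

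The signalling chain below the antigen receptor was mixed, with 9 of 13 considered members higher and 1 lower, at a median log2 ratio of 1.48. Members that are largely restricted to B cells stood out. Bank1, a scaffold of receptor signalling, was at 255 against 1.48 CPM, the kinase Blk at 85.0 against 1.36 CPM and the adaptor Blnk at 130 against 12.1 CPM. Kinases shared by many blood cells differed less. Syk had a ratio of 4.75 (interval 3.59 to 6.18), Btk 2.79 (1.27 to 5.34) and Lyn 1.79 (1.24 to 2.51). Bcl10 and Malt1, which link the receptor to NF-kB, had ratios of 1.21 (0.771 to 1.80) and 0.667 (0.333 to 1.20), both intervals holding 1. The adaptor Dapp1 was lower at 0.328 (0.175 to 0.562).

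Among B cell transcription factors 10 of 16 considered members were higher and 2 were lower. Besides Ebf1 and Pax5, the octamer coactivator Pou2af1 was at 75.0 against 0.261 CPM, Mef2c at 610 against 35.9 CPM, Ikzf3 at 90.0 against 4.85 CPM and Klf2, a regulator of lymphocyte homing, at 705 against 63.0 CPM. Irf8 and Spi1, which act in both B cells and dendritic cells, were the 2 lower members, at 140 against 326 CPM and 165 against 360 CPM. Both were less than 2-fold lower with the scaling that leaves out immunoglobulin, mitochondrial and ribosomal protein genes. The Irf8 ratio turned above 1 when the 25 Fscn1-rich cells were used in place of the 28, with a log2 ratio of 0.29.

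**Figure D2:**
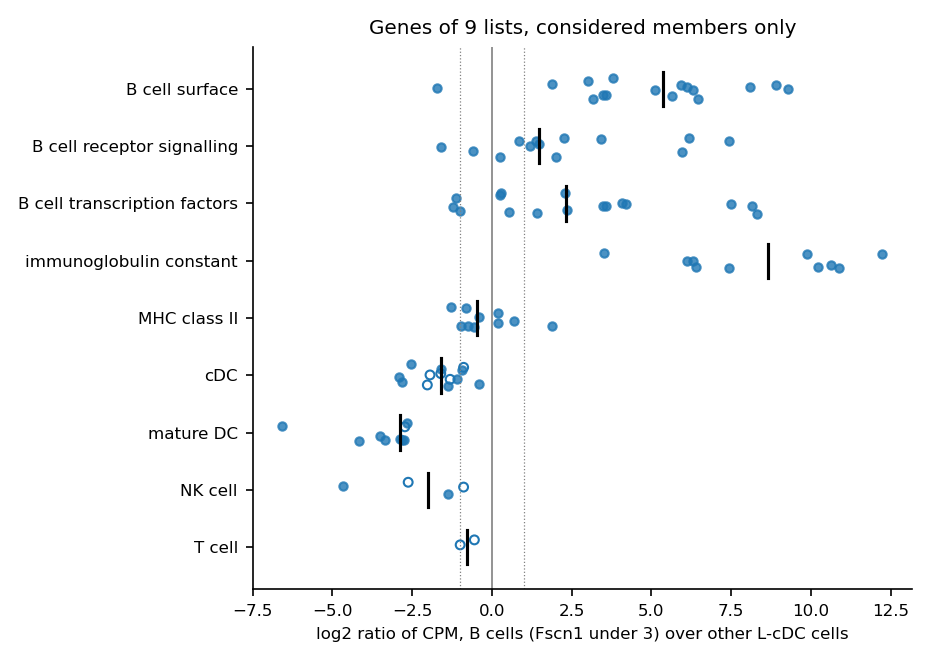
Log2 ratio of CPM in the 28 B cells with fewer than 3 Fscn1 UMIs over the other L-cDC cells, for the considered genes of 9 lists; each point is a gene, open points are genes with 0 UMIs in the B cells set at 3 counts, black bars are list medians and dotted lines mark 2-fold. B cell and immunoglobulin lists lie mostly to the right, at medians of 5.37 for surface genes and 8.66 for immunoglobulin constant genes, and both dendritic cell lists lie mostly to the left.

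The 20 genes with the highest ratio, among those found in at least 20% of the 28 cells, were all immunoglobulin genes or genes known from B or plasma cells, apart from the complement regulator Cd55. In order, those reported here were Iglc2, Mzb1, Igkc, Cd79a, Iglc1, Fkbp11, Vpreb3, Fcmr, Pax5, Pou2af1, Fcer2a, Cd55, Ebf1, Iglc3, Bank1, Ms4a1, Cd79b, Cd22 and Ighm. Some of these sums rested largely on 1 cell. A single cell supplied 89% of the Iglc2 UMIs, 88% of Igkc and 87% of Ighm, and 53% of Fkbp11. Without the antibody-rich cells described below, the ratio was 706 for Iglc2, 241 for Igkc, 14.1 for Ighm, 439 for Mzb1 and 105 for Fkbp11. For Cd79a the largest share from 1 cell was 11.7%.

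Sequences before the gene start were looked up in RefSeq (GRCm38.p6) for these 20 genes and matched 11 of them, with 15 start sites. The 250 upstream bases were searched on both strands for the octamer ATGCAAAT, known from immunoglobulin promoters, and for a form of the EBF motif, TCCC and GGGA with any 2 bases between them. Each was found before 1 of the 11 genes. The octamer occurred in reverse, as ATTTGCAT, 45 to 38 bases before the start of Vpreb3. Its 250 upstream bases are shown because Vpreb3 is the precursor-stage gene that these cells held, and the capitals mark the octamer.
Vpreb3 (chr10:75948050-75948299, plus strand): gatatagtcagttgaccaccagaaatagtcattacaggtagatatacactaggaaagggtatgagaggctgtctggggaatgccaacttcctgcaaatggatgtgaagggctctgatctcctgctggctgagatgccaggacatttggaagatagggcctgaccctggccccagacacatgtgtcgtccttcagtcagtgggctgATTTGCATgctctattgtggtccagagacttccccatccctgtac
The EBF form, as TCCCTGGGGA, lay 49 to 40 bases before the start of Cd22. Of 32851 upstream windows of this length, 1.60% held the octamer and 0.779% the EBF form. A match describes letters only and not binding.

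Light chains were present in nearly every B cell, and the cells differed mainly in which chain led. Kappa, counted by Igkc, made up the majority of light-chain constant UMIs in 44 of the 52 cells with at least 5 of them, 84.6% (interval 71.9 to 93.1), and lambda in 8. A stricter call, at least 90% of 1 chain, gave 6 kappa cells, 5 lambda cells and 41 cells that met neither. Of the 28 cells with fewer than 3 Fscn1 UMIs, 2 were kappa by the strict call (7.14%, interval 0.877 to 23.5) and 22 by majority (78.6%, interval 59.0 to 91.7).

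Lambda constant UMIs were found in kappa cells. Leaving aside 3 antibody-rich cells described below, all 42 kappa-majority cells had lambda constant UMIs, from 2 to 63 per cell with a median of 10.5. Their Igkc UMIs ran from 4 to 114, with a median of 34.5. Summed over these 42 cells the lambda level was 1778 CPM (interval 1637 to 1928), against 9.48 CPM in the other L-cDC cells, of which 3.69% had a lambda UMI. Iglc2 made up 40.5% of these lambda UMIs, Iglc3 35.1% and Iglc1 24.4%, so the less similar Iglc1 was among them, in 22 of the 42 cells.

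Igkc was absent from most lambda-majority cells. Of the 8 lambda-majority cells, 5 had no Igkc UMI at all. Of these 5, 1 was antibody-rich, and the other 4 had 97, 74, 56 and 24 lambda UMIs. The remaining 3 lambda-majority cells had 13, 24 and 34 Igkc UMIs beside 38, 141 and 35 lambda UMIs. In the other L-cDC cells Igkc was at 24.3 CPM, with an Igkc UMI in 15.8% of them. Cells that met neither strict call made up 22 of the 28 cells and 19 of 24 Fscn1-rich cells. Kappa and lambda calls set Igkc against the sum of the 3 lambda genes, within which Iglc1, Iglc2 and Iglc3 are not told apart. In local alignments Igkc was 76.1% identical to Iglc1 along 88 bases and 74.7% identical to Iglc2 along 79. It aligned with Iglc3 along only 20 bases, at 90% identity. The part of similarity between Igkc and the lambda genes, or of doublets, in these counts was not tested.

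**Figure D3:**
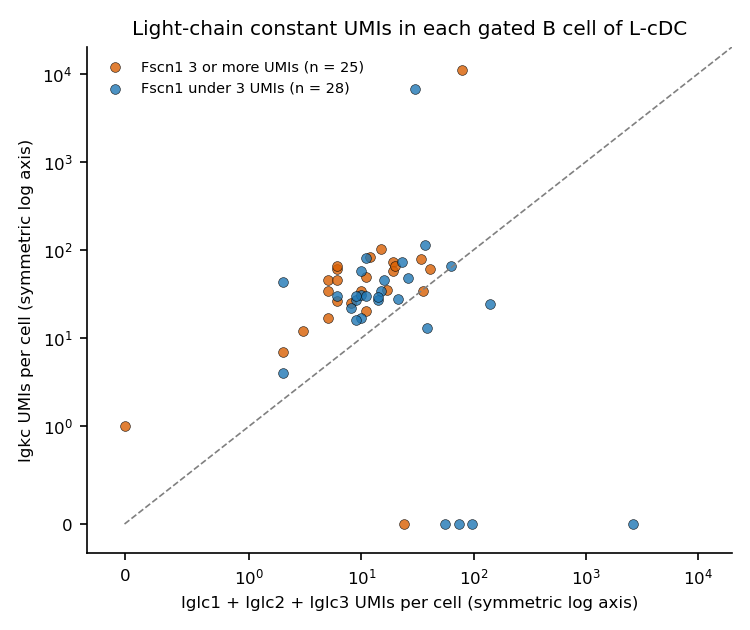
Igkc UMIs against the sum of Iglc1, Iglc2 and Iglc3 UMIs in each of the 53 gated cells, both on symmetric log axes that are linear below 1, with colour by Fscn1 UMIs and a dashed line of equality. Most cells lie above the line with lambda UMIs present, 5 cells lie on the bottom at 0 Igkc, and 3 antibody-rich cells lie far from the rest.

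Heavy chains placed most cells in the unswitched class. Ighm and Ighd together held most heavy-chain constant UMIs in 45 of the 50 cells with at least 3 such UMIs (90.0%, interval 78.2 to 96.7), and IgG or IgA genes in 5. Among the 28 cells the split was 23 to 4, and among the 25 Fscn1-rich cells 22 to 1. Ighd, which marks mature naive cells and counts towards the unswitched class, was found in 30 of the 45 unswitched cells. Fcer2a and the complement receptor Cr2 were found in 21 and 20 of the 45 and in none of the 5. The median depth was 9846 UMIs in the 5 and 5641 in the 45, and the part of depth in these shares was not tested. Ighg1 and Ighe had no UMI in any of the 53 cells, and Ighg2c had 1.

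The switched cells carried other genes. They were described after their values had been seen. Bhlhe41, a repressor known from B-1 and memory B cells, was found in 4 of the 5 switched cells with 3 to 5 UMIs each and in 5 of the 45 unswitched cells with at most 3. Ccr6, a chemokine receptor of memory and other B cells, was found in the same 4 with 3 to 8 UMIs and in 13 of the 45. A pair of these cells had Ighg2b as main heavy chain, at 14 and 15 UMIs. They also held Tbx21, the factor T-bet, at 13 and 3 UMIs, and Zeb2 at 7 and 13. The second of the pair was the only switched cell among the Fscn1-rich cells, which are given apart as possible doublets. Zeb2 was found in 4 of the 5 switched cells, and in 13 of the 45 unswitched cells with at most 6 UMIs. The remaining switched pair were a cell with 16 Ighg2b UMIs and a cell with 18 Igha UMIs. The fifth switched cell was antibody-rich.

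Antibody-rich cells, set at 500 or more light-chain UMIs after the values had been seen, numbered 3 and differed from one another in class. One had 6757 Igkc, 896 Igha and 409 Jchain UMIs, an IgA kappa pattern, where Jchain encodes the joining chain of IgA and IgM polymers. Another had 2579 Iglc2, 1629 Ighm and 105 Jchain UMIs, an IgM lambda pattern. The third, with 7 Fscn1 UMIs, had 10962 Igkc, 3260 Ighm and 798 Jchain UMIs, an IgM kappa pattern. Constant-region and Jchain UMIs together made up 26.6%, 25.2% and 62.6% of all UMIs in these cells, against a median of 1.06% over the 53. The remaining 50 cells had at most 8 Jchain UMIs.

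Plasma cell genes followed the same 3 cells. Mzb1, a chaperone for antibody assembly, had 281, 242 and 90 UMIs there, and at most 19 in any other B cell. Xbp1, the factor that expands the secretory system, had 11, 24 and 13 UMIs, and Derl3, of the degradation path of the endoplasmic reticulum, had 19, 18 and 9. Prdm1, the regulator Blimp-1, had 3, 0 and 0 UMIs and Sdc1, the plasma cell marker syndecan, 0, 0 and 1. Ebf1 had 0, 1 and 0 UMIs in these cells, and Ms4a1 0, 5 and 0. Variable-gene UMIs, few in this 3′ method, reached 80, 51 and 138 in the 3 cells and at most 4 in any other. The leading variable genes differed, and each cell held UMIs of heavy and light variable genes. The IgA kappa cell had 28 UMIs of Igkv1-122, 21 of Igkv6-23, 20 of Iglv1 and 8 of Ighv1-19. The IgM lambda cell had 24 of Ighv9-3, 16 of Iglv1 and 9 of Iglv2. The IgM kappa cell had 87 of Igkv1-135, 37 of Ighv6-3 and 9 of Iglv1. Why the IgA kappa cell held UMIs of more than 1 kappa variable gene and of Iglv1 was not tested.

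Subset lists gave uneven pictures. Of the follicular list 5 of 6 considered members were higher, including Cxcr5, the follicle homing receptor, at 60.0 against 0.990 CPM. The exception was Ccr7, which mature dendritic cells express at high levels, at 80.0 against 814 CPM. Of the marginal zone list 3 of 8 considered members were higher, Cr2, Mzb1 and Dtx1, and 4 were lower. Over all considered genes the shares were 18.4% and 19.7%. Most of the 610 Mzb1 UMIs in the 28 cells came from antibody-rich cells, with 281 and 242 UMIs. Dtx1 had only 6 UMIs, in 3 of the 28 cells. Cd1d1 and Cd9, which dendritic cells also express, had ratios of 0.110 (0.0299 to 0.282) and 0.234 (0.112 to 0.431). Fcer2a and Cr2 were found together in 10 of the 53 cells, Fcer2a without Cr2 in 12 and Cr2 without Fcer2a in 11, and 20 had neither. At these depths a missing UMI does not show a missing transcript.

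Genes of B cell precursors were nearly absent. Rag1, Rag2, Igll1, Vpreb1, Dntt, Cd93 and Sox4 had no UMI in the 28 cells. Vpreb3, which mature B cells keep, was found in 15 of the 28 at 270 CPM. Il7r itself, the gene whose past activity the label records, was found in 4 of the 28 cells at 30.0 CPM, against 209 CPM in the other L-cDC cells. Per cell this was 14.3% (interval 4.03 to 32.7) against 59.7% of the other L-cDC cells. With each cell thinned to 2000 UMIs it was 0 of 28 against 31.0%, and 182 shallower other cells were left out of this. The other cells were uneven. Without thinning, Il7r was found in 69.1% of Fscn1-rich cells without B cell UMIs and 59.6% of Nkg7-positive cells. In Xcr1-positive cells it was found in 2.33%, and in 0 of 172 after thinning.

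Of the germinal centre list, 22 of the 53 cells had a UMI, mostly of Fas, in 15 cells, or Bcl6, in 10. The list was not particular to B cells. It had no UMI in 31 of the 53, in 892 of 2463 Fscn1-rich cells without B cell UMIs and in 14 of 172 Xcr1-positive cells. These sets had medians of 6240, 8590 and 16350 UMIs. Of its 2 considered members 0 were higher in the 28 cells. Among the 53, one cell with 18737 UMIs held the most, and it had 6 UMIs of Rgs13, 2 of S1pr2 and 2 of Mybl1. It also had 24 UMIs of Mki67 and 28 of Stmn1, genes of dividing cells. In the whole list of 7 germinal centre genes the 28 cells had a median sum of 0. A second cell, with 21467 UMIs and 11 of Fscn1, had 17 Mki67 and 13 Top2a UMIs. Of the 28 cells, 18 had no UMI of any of the 6 cell cycle genes. Over the activation list 3 of 13 considered members were higher and 3 lower, shares near those over all considered genes. Cd69 was higher at 110 against 8.65 CPM and Cd83 was lower at 55.0 against 195 CPM.

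Itgax, the target of the bead enrichment, was rare in the B cells. An Itgax UMI was found in 2 of the 28 cells (7.14%, interval 0.877 to 23.5) and 1 of the 25 (interval 0.101 to 20.4%). By comparison it was found in 18.3% of Fscn1-rich cells without B cell UMIs (mature dendritic cells, n = 2463), in 59.9% of 172 Xcr1-positive cells and in 60.9% of 161 Nkg7-positive cells. These sets had medians of 8590, 16350 and 8487 UMIs, deeper than the 5053 of the 28 cells. After thinning to 2000 UMIs the shares were 3.57% in the 28 cells, 5.12% in mature dendritic cells, 11.6% in Xcr1-positive cells and 24.8% in Nkg7-positive cells. The interval for the 28 thinned cells, 0.0904 to 18.3%, held the first 2 of these other shares. Of the 5 Itgax UMIs in the 28 cells, 4 came from the IgA kappa cell and 1 from a switched cell with Tbx21. Cells chosen by the other 6 B cell genes had Itgax in 24.4% of 41, and 14 of those 41 were outside the Cd79a-based set.

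MHC class II genes were expressed in the B cells, and the most abundant of them were lower than in the surrounding cells by less than 2-fold. The list summed to 17596 against 27546 CPM. Of 10 members 1 was higher and 1 lower at 2-fold, beside 18.4% and 19.7% of all considered genes. H2-Aa was found in all 28 cells at 2839 CPM against 4942 CPM, a ratio of 0.575 (0.528 to 0.624), and Cd74, the invariant chain, at 9388 against 13710 CPM, a ratio of 0.685 (0.654 to 0.716). The sums include antibody-rich cells, which were deep and held little of this RNA for their depth. The 3 antibody-rich cells, 1 of them Fscn1-rich, had 5 to 15 H2-Aa and 38 to 131 Cd74 UMIs at 17332 to 30478 UMIs each. Medians over the 28 cells were 16 and 48.5 at a median depth of 5053 UMIs. The part of the antibody-rich cells in these ratios was not tested. The higher member was H2-Ob, a chain of the H2-O modulator of peptide loading, at 150 against 40.5 CPM. H2-DMb1 was the lower member at 60.0 against 145 CPM, and was just under 2-fold lower with that same scaling. Nkg7-positive cells of the same library, which give a level for cells not specialised in antigen presentation, had 729.5 CPM of H2-Aa and 1704 CPM of Cd74.

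Dendritic cell genes were low in the 28 cells but not at 0. Xcr1 and Fscn1 are left out of the counts here, since the choice of cells set their levels. Of the other 12 considered conventional dendritic cell genes 9 were lower and none higher, and the other 8 mature dendritic cell genes were all lower. Clec9a, Cd209a, Ifi205 and Cd8a had no UMI. Cst3, the cystatin abundant in dendritic cells, was at 930 CPM, against 6503 CPM in the other cells and 775 CPM in Nkg7-positive cells. These 8 genes summed to between 0 and 27 UMIs per cell (median 3.5), against a median of 3 in Nkg7-positive cells and 69 in mature dendritic cells. Among genes with at least 100 CPM in the other cells, 6 had no UMI in the 28 cells, and these were set at 3 counts. On that footing Socs2, with 1 UMI, had the lowest ratio, 0.0106 (0.000268 to 0.0590). Next came H2-M2, Lyz2, Gzmc, Pfkfb3, Xcl1, Slco5a1, Frmd4a, Arhgap22 and Gzma, each with 1 or 2 UMIs.

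The 25 Fscn1-rich cells combined B cell genes with more dendritic cell RNA. Fscn1 itself ran from 3 to 66 UMIs (median 7), by choice. Mature dendritic cell genes that the split did not use were also higher than in the 28 cells. Ccr7 was at 611 against 80.0 CPM, a ratio of 7.64 (4.56 to 13.7), and Ccl22, a chemokine of mature dendritic cells, at 350 against 35.0 CPM, 10.0-fold (4.65 to 25.6). Cst3 was at 3757 CPM, a ratio of 4.04 (3.45 to 4.76). Each of these lay between the level of the 28 cells and that of mature dendritic cells, which had 1115 CPM of Ccr7, 598 CPM of Ccl22 and 5953 CPM of Cst3.

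B cell genes were present in the Fscn1-rich cells, several at a lower CPM than in the 28 cells. Ebf1 was at 459 against 675 CPM, and Ly6d at 1163 against 1620 CPM, a ratio of 0.718 (0.610 to 0.844). Fcmr, at 229 against 260 CPM, had a ratio of 0.882 (0.595 to 1.31), an interval that holds 1. Cd79a, which the choice of cells used, was at 1404 against 2055 CPM. Depth differed too, at a median of 8166 against 5053 UMIs. As a reference from another cell type, 17 of 161 Nkg7-positive cells (10.6%) had 3 or more Fscn1 UMIs, against 25 of the 53 B cells. The part of doublets and free RNA in these counts was not tested. The plot of dendritic cell genes by cell set gives the levels side by side.

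**Figure D4:**
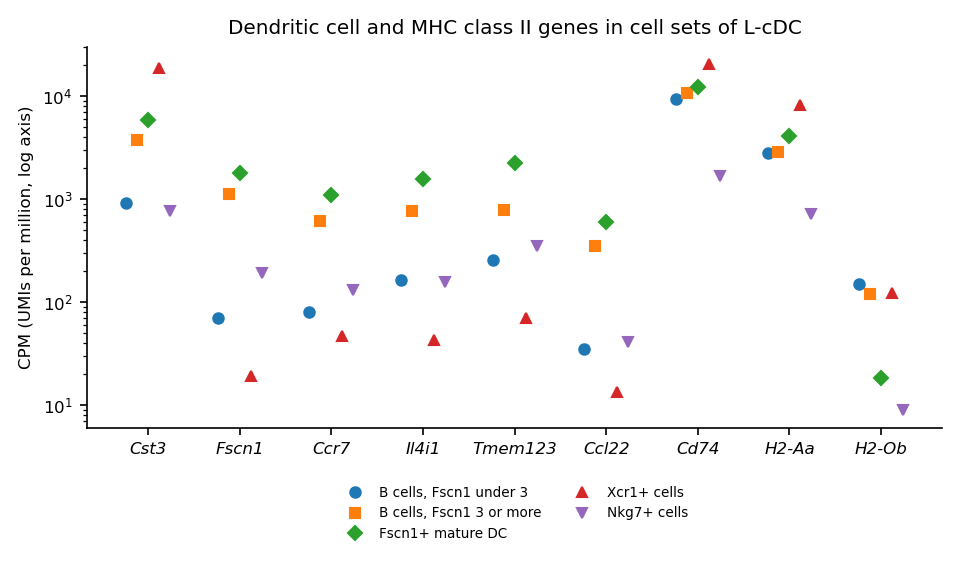
CPM on a log axis of 6 dendritic cell genes and 3 MHC class II genes in 5 sets of L-cDC cells (28 and 25 B cells, 2463 mature dendritic cells, 172 Xcr1-positive cells and 161 Nkg7-positive cells); each point is the level summed over a set. The Fscn1-rich B cells lie between the other B cells and the mature dendritic cells for Cst3, Fscn1, Ccr7, Il4i1, Tmem123 and Ccl22 (Fscn1 by choice), and H2-Ob is high in both sets of B cells at 150 and 121 CPM against 18.4 CPM in mature dendritic cells.

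Other cell types left few traces in the 28 cells. Of 10 T cell genes 9 had no UMI, and the list summed to 0 in 26 of the 28 cells. Of 8 natural killer cell genes Nkg7, Klrb1c, Ncr1, Gzmb and Eomes had none, Nkg7 being limited by the choice of cells. C1qa, C1qb, C1qc and Csf1r of macrophages, S100a8 and S100a9 of neutrophils and the platelet genes Pf4, Ppbp and Itga2b had none either. Siglech, of plasmacytoid dendritic cells, had none in any of the 53 cells.

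Toll-like receptors were sparse. Cd180, a relative of the Toll-like receptors that B cells use, was at 135 CPM, with an interval of the ratio to the other cells from 3.54 to 7.91, and Tlr7 had 4 UMIs and Tlr9 1 UMI in the 28 cells. Over all considered genes 18.4% were higher and 19.7% lower. Of the cytokine receptor and survival list 3 of 12 considered members were higher and 4 lower. The receptors for the survival factor BAFF were among the higher ones, Tnfrsf13c at 155 against 1.95 CPM and Tnfrsf13b at 140 against 11.7 CPM. Bcl2, which protects cells from death, was higher at 120 against 15.8 CPM, while Bcl2a1b and Bcl2a1d, which are close copies of each other, were lower at 255 against 1087 CPM and 155 against 561 CPM. Of the trafficking list 6 of 11 considered members were higher and 4 lower, beside the same 18.4% and 19.7% over all considered genes. S1pr1, the exit receptor of lymphocytes, had a ratio of 27.6 (16.6 to 43.8), and Gpr183, a guide to the follicle border, one of 0.477 (0.283 to 0.755).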

How the data were processed

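The authors deposited 1 matrix of raw UMI counts per library with gene and barcode lists, with Cell Ranger 6.1.2 named in the file headers and the build GRCm38 (mm10) in the submitters' processing notes, from a 3′ v3.1 droplet kit per the labels. The other deposited files hold names only. Barcodes with fewer than 500 genes or over 10% mitochondrial UMIs were removed, leaving 4086 of 4939 (L-cDC) and 5848 of 6674 (M-cDC). UMIs were summed per cell set and scaled to CPM, with exact Poisson, exact conditional binomial (ratios) and Clopper-Pearson (shares) 95% intervals. A set at 0 was put at a floor of 3 counts. No p-value is given, since each group is 1 library. Mature dendritic cells had 3 or more Fscn1 UMIs, at most 1 of Nkg7 and none of Xcr1. Xcr1-positive cells had 2 or more Xcr1 UMIs, fewer than 3 of Fscn1 and at most 1 of Nkg7. Nkg7-positive cells had 5 or more Nkg7 UMIs and none of Xcr1. Each of these sets had no UMI of Cd79a, Cd79b or Ms4a1. Scrublet ran at an expected rate of 0.08 with a limit of 0.25. Doublets were not removed otherwise. The ratio calculation was tested on simulated Poisson counts. Named genes were all list members, the 20 highest ratios (20 CPM or more, found in 20% of cells) and the 10 lowest (100 CPM or more in other cells). Some genes are not reported here. Gene lists and members were chosen with earlier results of these data known. Scrublet was run through scanpy 1.11.5. Statistics used scipy 1.17.1 and tables pandas 2.3.3 under Python 3.11.15, and plots matplotlib 3.10.9.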

Additional observations from a re-analysis of the deposited data

Results flagged for a closer look

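Among the L-cDC barcodes removed by the cell filters, 8 also met the B cell limits, and among the removed M-cDC barcodes none did. All 8 had over 10% mitochondrial UMIs, from 10.3% to 44.2%, and from 1074 to 9156 UMIs. Their Cd79a, Cd79b and Ms4a1 sums ran from 5 to 62, and 1 of them had 5 Fscn1 UMIs. They were left out of all values above.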

How the results depend on the processing

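The 53 cells come from 1 library, so animals, staining and sorting cannot be told apart from the label. The share of B cells with fewer than 3 Fscn1 UMIs, 0.685%, became 0.366% at a limit of 5% mitochondrial UMIs (0.816% with Fscn1-rich cells), 1.30% with Fscn1-rich cells kept, 0.367% with cells under 5 UMIs of 6 dendritic cell genes (0.392% with Fscn1-rich cells), and 1.003% when chosen by 6 other B cell genes (1.76% with Fscn1-rich cells). The kappa share became 0% under the dendritic cell limit and 78.6% by majority, and the Itgax share 24.4% under the other 6 genes. The 1023 genes higher in B cells became 541 with Fscn1-rich cells kept, 465 with these alone, 1724 under the dendritic cell limit, 2018 with scaling without immunoglobulin, mitochondrial and ribosomal protein genes, 1677 after thinning, 2147 at 5 CPM and 504 at 50 CPM, where 605 were lower. The number of considered genes also changed, from 5554 to 6800 with the scaling that leaves out these 3 kinds of genes. Higher calls made up 48.3% of all calls, 68.6% with that scaling and 68.8% after thinning. Log2 ratios changed sign in 11 of 85 named genes. At 5% mitochondrial UMIs these were Ccr6 (-0.25), H2-DMa (-0.20), H2-Oa (-0.24) and Spib (-0.11). With Fscn1-rich cells kept they were H2-DMa (-0.0043) and H2-Oa (-0.061), and with these alone Arhgap22 (0.17), H2-DMa (-0.19), H2-Oa (-0.31), Irf4 (-0.26) and Irf8 (0.29). Under the other 6 genes they were H2-Ab1 (0.0059) and Irf8 (0.44), and after thinning Bcl6 (0.16), Ciita (0.32) and Malt1 (0.25). The cause was not tested. The use of Fscn1-rich cells alone, the majority call and leaving out antibody-rich cells (1281 genes higher) were alternatives chosen after seeing the data. No paired analysis was possible because each group is 1 library, and the planned comparison of B cells between libraries could not be run because M-cDC had none.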

Other observations

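Light-chain RNA also appeared outside the B cells. Of the 29 L-cDC cells with 5 or more UMIs of Siglech, a lectin of plasmacytoid dendritic cells, 18 had an Igkc UMI (62.1%) and 6 had 20 or more light-chain UMIs. None of their UMIs came from Cd79a, and their summed Igkc level was 311 CPM, against 21.4 CPM in 3900 L-cDC cells without Siglech. Their median depth was 11795 UMIs against 8591. M-cDC had 2 such cells, neither with Igkc. Jchain, the joining chain gene, had 26, 19 and 6 UMIs in 3 L-cDC cells outside the B cell set, of which the first 2 had 12 and 21 Siglech UMIs.

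Cells outside the Cd79a-based set that the 6 other B cell genes brought in numbered 14. Of these, 9 had an Itgax UMI, 7 had 5 or more Siglech UMIs and 1 had Cd79a. The cause was not tested.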
